A study of Mus musculus with 5 samples.

Results

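Imprinted growth genes were followed in aortas of diabetic mice. They were the 10 genes Igf2, H19, Mest, Peg3, Dlk1, Cdkn1c, Plagl1, Grb10, Gnas and Ndn, found by gene symbol in the annotation of the array, and the imprinted gene neuronatin was not included. Of the 10 genes, 9 had a probe set of their own, among 12393 such genes on the array. These 9 were read by 25 probe sets, and H19 was read only by a probe set that the annotation shares with the microRNA gene Mir675, which is treated separately. The db/db mice, homozygous for a mutation in Lepr (the leptin receptor), gave 3 arrays, replicates 1, 2 and 3. Heterozygous db/+ mice from that colony gave 2 arrays, replicates 2 and 3, and a further db/+ pool that the design text implies was not analysed here. All mice were males of the strain BKS.Cg-m +/+ Lepr db/J, 16 to 20 weeks old and on regular chow, and the db mutation was present in every tissue. The strain name also holds misty (m), a coat colour mutation, written on the chromosome opposite the one with Lepr db. The labels do not list misty by mouse, and a difference in it between the genotypes could not be told apart from db. Each array was 1 pool of 6 aortas, with adventitia and periaortic fat stripped off according to the design text. Fat cell transcripts were still read on every array, with signals of 1393.8 to 2790.7 for Adipoq and 2136.2 to 4334.5 for Ucp1. How completely the fat was removed was not tested. Pools were described as independent, so p-values set the difference between genotypes against the spread between pools. The spread between mice within a pool is not seen.

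An imprinted gene is expressed mainly from the copy inherited from the mother or from the copy inherited from the father. Many imprinted genes act on growth before and shortly after birth, and paternally expressed ones such as Igf2 tend to promote growth while maternally expressed ones such as Cdkn1c tend to restrain it. Most of the 10 are known for high levels in the embryo and placenta and for a fall after birth. In mice the zinc finger factor Plagl1 and the long noncoding RNA H19 are described as regulators within a network of these genes. The arrays read the total transcript of a gene and do not tell the 2 parental copies apart, so nothing here bears on the state of the imprint.

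The values were MAS5 signals, a linear brightness per probe set scaled to a common level on every array. A log2 change is db/db minus db/+ on the scale log2(signal + 16), with the standard error (SE) of the limma fit, and a probe set passed at an adjusted p under 0.05 over all 13575 probe sets tested. Probe sets under a signal of about 39.5 on that scale were not tested. Signals of different probe sets were not compared with each other. Median signals of the arrays lay between 59 and 61.5, and pairs of arrays correlated across tested probe sets with r between 0.952 and 0.977. Markers of smooth muscle, the main cell of the aortic wall, were all measured above the filter's level (17 of 17). For Lepr the tested probe set stood at 0.26 (log2 change, SE 0.17, adjusted p = 0.77), did not pass and does not check the genotype labels, because the db mutation alters splicing of the gene. The untested Lepr probe set 1425644_at had 35.5, 23.3 and 23.7 in db/db and 4.6 and 6.1 in db/+, without overlap. In 1425873_a_at, also untested, signals lay between 6.6 and 22.5 and the groups overlapped.

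None of the 17 tested member probe sets passed, in either direction. Over all probe sets 0.0810% passed lower and 0% passed higher in db/db. At an unadjusted p under 0.05, 5 member probe sets were lower and 0 higher, where the share over all probe sets was 4.15% lower and 3.98% higher. The 5 were 1 of Plagl1 and 4 of Ndn, and the 4 read the same gene and are not separate pieces of evidence. Arrays of db/db lay wholly below those of db/+ at 6 of the 17, against 11.9% of all probe sets, and wholly above at 0, against 13.1%. These 6 include the same 4 of Ndn, so they too are not separate pieces of evidence. By the brightest probe set, 3 of the 9 genes lay wholly below and 0 wholly above, against 989 and 1128 of all 8263 genes. By that reading 2 genes were lower and 0 higher at an unadjusted p under 0.05, against 353 and 360 of the 8263. The median log2 change was −0.065 over the 17 member probe sets and 0.017 over all 13575, and −0.0020 over the 9 genes by their brightest probe set. In bulk tissue, fewer cells of a type and less RNA per cell cannot be told apart.

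**Figure D1:**
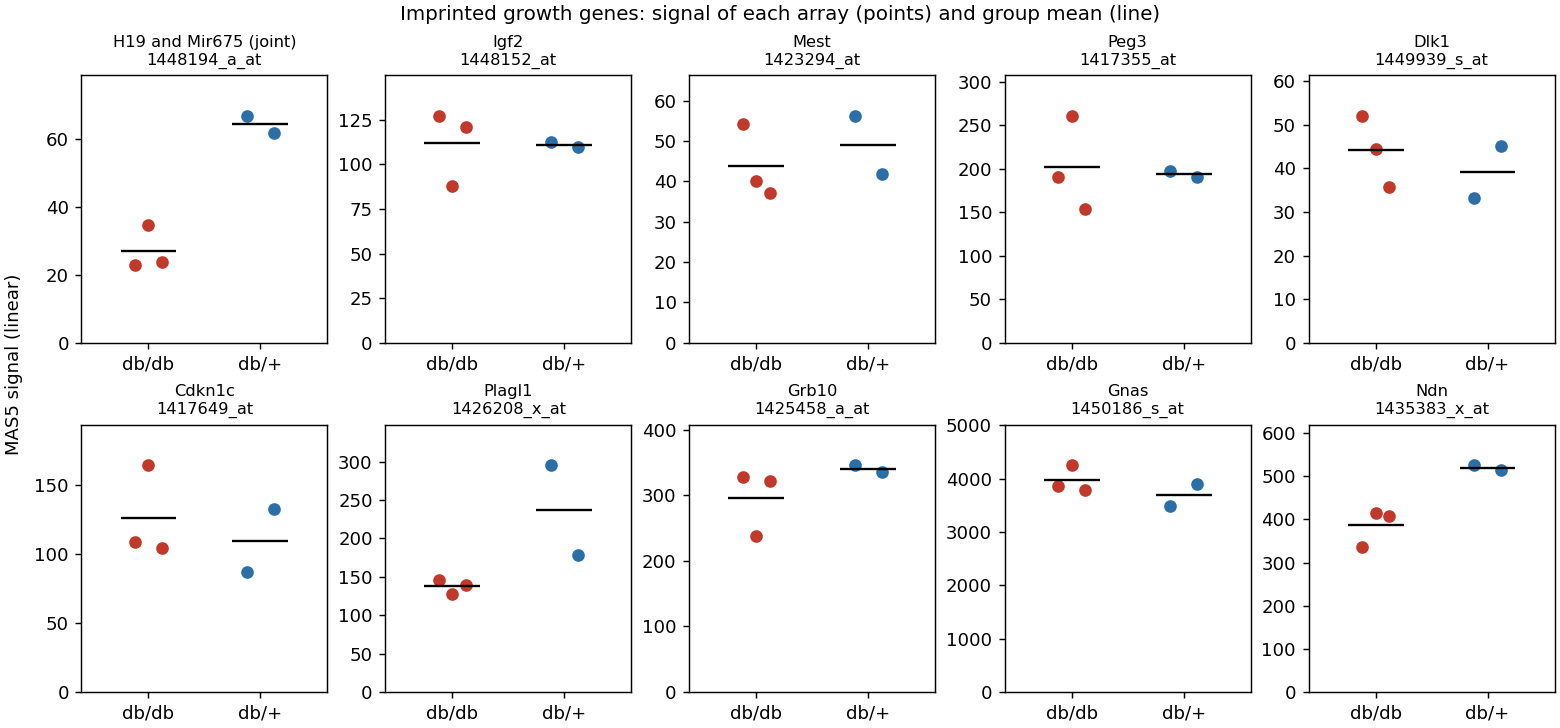
MAS5 signal (linear axis from 0) of the brightest probe set of each gene, with db/db arrays in red and db/+ arrays in blue; points are arrays (n = 3 and n = 2) and lines are group means. The groups do not overlap for the joint probe set of H19 and Mir675, for Plagl1, for Grb10 and for Ndn, where db/db is lower each time, and they overlap for the other genes.

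The sequences below belong to the genes whose arrays separated most. The promoter windows of Ndn and Plagl1, 250 bases before to 50 bases after the annotated start, are from RefSeq on build GRCm38.p6. Capitals mark CG dinucleotides, the bases at which DNA methylation carries imprints. The Ndn window lies at chr7:62348027-62348326 on the + strand and the Plagl1 window at chr10:13090582-13090881 on the + strand. The 2 mature products of Mir675, whose hairpin lies inside H19 on chromosome 7, have their seed (bases 2 to 8) in capitals.
Ndn promoter: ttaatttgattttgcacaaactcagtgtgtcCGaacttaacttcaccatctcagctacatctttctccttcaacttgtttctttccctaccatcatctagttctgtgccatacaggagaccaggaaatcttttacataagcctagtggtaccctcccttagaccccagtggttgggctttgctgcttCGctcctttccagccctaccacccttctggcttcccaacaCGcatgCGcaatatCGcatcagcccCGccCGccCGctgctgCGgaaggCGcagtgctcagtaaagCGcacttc
Plagl1 promoter: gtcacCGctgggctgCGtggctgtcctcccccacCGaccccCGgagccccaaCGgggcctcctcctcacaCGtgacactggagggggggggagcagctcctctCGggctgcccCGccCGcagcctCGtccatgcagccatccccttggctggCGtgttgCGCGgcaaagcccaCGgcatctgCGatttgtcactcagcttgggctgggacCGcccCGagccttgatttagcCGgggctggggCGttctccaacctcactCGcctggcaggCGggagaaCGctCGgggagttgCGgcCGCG
mmu-miR-675-5p: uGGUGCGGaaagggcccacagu
mmu-miR-675-3p: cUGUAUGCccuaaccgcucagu

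Promoter windows were listed for 8 of the 10 genes, 17 windows in all. The Ndn window held 11 CG dinucleotides and the Plagl1 window 26, against a median of 7 (quartiles 3 and 20) over 32851 windows of the same length. The 17 windows ranged from 2 for the window of Igf2 that lies farthest upstream to 45 for a window of Grb10, and 15 of them were above the median of all windows. The palindrome GGGGCCCC, the core of the sequence that the Plagl1 protein is known to bind, was searched on both strands, which read the same. It was found in 1 window, that of Peg3, 201 bases before the start, and in 1.08% of all windows.

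H19, a maternally expressed noncoding RNA next to Igf2, is known to be abundant in the embryo and in adult muscle. The probe set 1448194_a_at, annotated to H19 and Mir675 together, had signals of 22.9, 34.6 and 23.9 in db/db and of 66.7 and 61.9 in db/+. Every db/db array was below both db/+ arrays, with means of 27.1 ± 6.49 in db/db and 64.3 ± 3.39 in db/+ (SD, n = 3 and n = 2). It fell just under the filter, with an average of 39.1 on the log2(signal + 16) scale, and so had no test in the fit used here. With no filter its log2 change was −0.91 (SE 0.17, limma adjusted p = 0.31), and with a filter on the mean of linear signals, chosen after the values were seen, the adjusted p was 0.15 for the same log2 change. The probe set therefore did not pass in either fit. A mature microRNA is too short for this assay, so the signal is not a measure of the mature sequences shown above.

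Igf2, the paternally expressed growth factor that shares enhancers with H19, had no such difference. Its tested probe set 1448152_at gave 127, 88.1 and 121 in db/db and 112.4 and 109.6 in db/+. The db/+ values lay inside the db/db range, with −0.0020 as log2 change (SE 0.18, 95% interval −0.42 to 0.42, adjusted p = 0.999). A second probe set of Igf2, 1415931_at, had signals from 2.2 to 5.5 and was not tested.

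Plagl1 encodes a zinc finger transcription factor that halts the cell cycle, and is expressed from the paternal copy. Its tested probe set 1426208_x_at had 145.6, 127.3 and 139.6 in db/db and 295.3 and 179.1 in db/+. The 3 db/db arrays were close together and all below the db/+ arrays, which lay far apart. Means were 138 ± 9.33 in db/db and 237 ± 82.2 in db/+ (SD, n = 3 and n = 2), and the log2 difference was −0.68 (SE 0.21, unadjusted p = 0.011, adjusted p = 0.41), the lowest value among the tested members. The value was −0.35 without db/+ replicate 2 and −1.02 without db/+ replicate 3. The suffix of this probe set marks probes that can also read other sequences, and the second probe set of Plagl1 (1450533_a_at, signals 4 to 6) was not tested.

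Ndn encodes necdin, a growth suppressor of the MAGE family that is expressed from the paternal copy, abundant in neurons and also known in preadipocytes, where in mice it restrains fat cell formation. Of its 8 probe sets 7 were tested, 5 with a negative and 2 with a positive log2 change. The brightest, 1435383_x_at, had 336, 414.1 and 408 in db/db and 525.5 and 514.3 in db/+. All db/db arrays were lower, by a log2 difference of −0.42 (SE 0.16, adjusted p = 0.56). The probe set 1415923_at, whose suffix marks no overlap with other sequences, had 239.7, 234.5 and 338.5 in db/db and 354.4 and 389.2 in db/+. Here too the groups did not overlap, although db/db replicate 3 came close to db/+ (log2 change −0.45, SE 0.19, adjusted p = 0.61).

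The probe set 1455792_x_at of Ndn had 320.7, 306.6 and 347.6 in db/db and 382.2 and 487.7 in db/+ (−0.40, SE 0.17, adjusted p = 0.61). For 1437853_x_at the signals were 286.6, 328.7 and 307.1 in db/db and 373.7 and 450.7 in db/+ (−0.40, SE 0.16, adjusted p = 0.58). Another bright probe set, 1435382_at, had 362.4, 407.7 and 323.1 in db/db and 442.1 and 397.8 in db/+. In it db/db replicate 2 was above db/+ replicate 3, so the groups overlapped (−0.20, SE 0.17, adjusted p = 0.83). Over these 5 probe sets the log2 changes thus ranged from −0.45 to −0.20, and the unadjusted p was under 0.05 in 4. The remaining 3 probe sets of Ndn had no signal above 61.2, and their arrays overlapped: 1438939_x_at and 1456575_at had log2 changes of 0.042 and 0.15, and 1438978_x_at was not tested. With all tested probe sets of Ndn averaged, the dim ones included, the log2 change was −0.24 (adjusted p = 0.76), and with those lacking an overlap suffix it was −0.17 (adjusted p = 0.85), against −0.42 for the brightest alone.

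**Figure D2:**
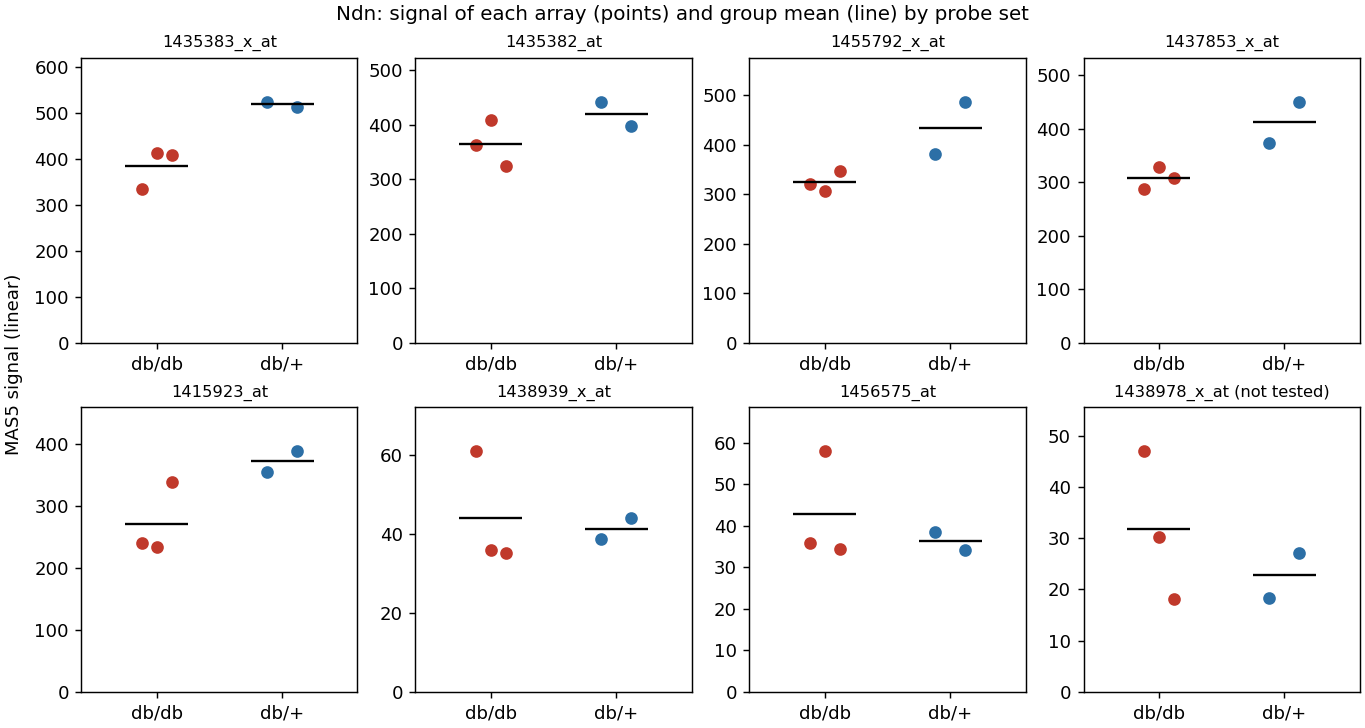
MAS5 signal (linear axis from 0) of the 8 probe sets of Ndn, brightest first, with db/db arrays in red and db/+ arrays in blue; points are arrays and lines are group means. In 4 of the 5 bright probe sets every db/db array is below both db/+ arrays, and in the 3 dim ones, with signals up to 61.2, the groups overlap.

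Peg3, a paternally expressed zinc finger gene known for its part in growth and maternal behaviour in mice, was close in both genotypes. Its probe set 1417355_at had 190.2, 260.4 and 154 in db/db and 197 and 190.4 in db/+. The db/db arrays spread around db/+ on both sides (log2 change 0.024, SE 0.21, adjusted p = 0.99). The probe set 1433924_at had 197.7, 207 and 174.9 in db/db and 178.4 and 204 in db/+, again overlapping (0.014, SE 0.16, adjusted p = 0.99). The other probe set of Peg3, 1417356_at, had signals from 7 to 44.5 and was not tested.

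Cdkn1c encodes p57, an inhibitor of cyclin-dependent kinases expressed from the maternal copy. It had 108.8, 164.3 and 104.6 in db/db and 86.8 and 132.7 in db/+. The groups overlapped, with db/db replicate 2 highest and db/+ replicate 2 lowest (0.17, SE 0.24, 95% interval −0.36 to 0.71, adjusted p = 0.90). The value was −0.011 without db/db replicate 2 and −0.092 without db/+ replicate 2. Grb10 encodes an adaptor that damps signalling by the insulin and IGF1 receptors and is maternally expressed in most tissues. Its tested probe set 1425458_a_at had 327.9, 237.4 and 321.9 in db/db and 345.6 and 334.9 in db/+. No db/db array reached db/+, but replicates 1 and 3 were close to it, and the log2 difference was −0.21 (SE 0.18, adjusted p = 0.85), or −0.063 without db/db replicate 2. The other 2 probe sets of Grb10, 1425457_a_at and 1430164_a_at, had signals from 11.1 to 32.8 and were not tested.

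Dlk1 encodes preadipocyte factor 1, a membrane protein that restrains fat cell formation and is expressed from the paternal copy. Its signals were 51.9, 44.5 and 35.8 in db/db and 33.2 and 45.2 in db/+, overlapping values near the filter's level (log2 change 0.12, SE 0.18, adjusted p = 0.91). Mest, a paternally expressed gene of the hydrolase fold that is linked to fat tissue expansion in mice, had 54.1, 40 and 37.2 in db/db and 56.1 and 41.9 in db/+. Those groups overlapped as well (−0.12, SE 0.19, adjusted p = 0.91). Neither gene thus differed detectably between genotypes in these pools.

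Gnas encodes the stimulatory G protein alpha subunit and, from other promoters of the same locus, further transcripts with imprints of their own. The probe set 1450186_s_at had 3866, 4251.9 and 3798.5 in db/db and 3488.3 and 3905.8 in db/+. The groups overlapped (log2 change 0.10, SE 0.16, 95% interval −0.25 to 0.46, adjusted p = 0.91). The probe set 1453413_at had 61.5, 63.1 and 53.6 in db/db and 59.4 and 66.2 in db/+ (−0.065, SE 0.16, adjusted p = 0.95). With an array left out the log2 change ranged from 0.022 (without db/+ replicate 2) to 0.18 (without db/+ replicate 3) for 1450186_s_at, and from −0.13 (without db/+ replicate 2) to −0.0022 (without db/+ replicate 3) for 1453413_at. The other 2, 1427789_s_at and 1421740_at, had signals from 2.6 to 12.2 and were not tested, and which transcripts of the locus each probe set reads was not examined. Altogether 8 member probe sets of 6 genes were not tested, with signals from 2.2 to 47.1.

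**Figure D3:**
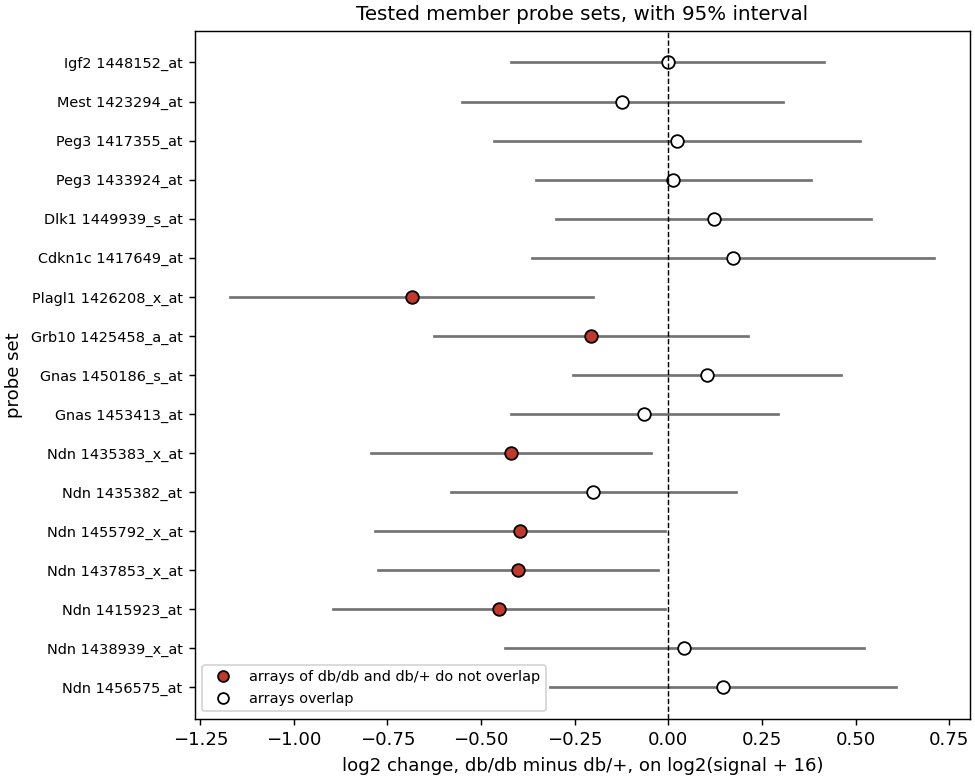
Log2 change, db/db minus db/+ on log2(signal + 16), of the 17 tested member probe sets with its 95% interval from limma; filled points mark probe sets whose arrays do not overlap between genotypes. Plagl1 and the 5 bright probe sets of Ndn lie between −0.68 and −0.20, and the 8 probe sets of Igf2, Mest, Peg3, Dlk1, Cdkn1c and Gnas lie between −0.12 and 0.17. Grb10 lies at −0.21 with a filled point, and the 2 dim tested probe sets of Ndn lie at 0.042 and 0.15.

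Neighbours in the members' imprinted domains were then examined. The annotation held 22 of them with 33 probe sets, of which 13, for 8 genes, were tested, and 0 passed. At an unadjusted p under 0.05, 1 of the 13 was lower and 0 higher, against 4.15% lower and 3.98% higher over all probe sets. Meg3, the maternally expressed noncoding RNA beside Dlk1, had 5 tested probe sets with log2 changes from −0.55 to 0.012. The value at an unadjusted p under 0.05 was that of 1436713_s_at, with 29.3, 63.2 and 50.7 in db/db and 76.7 and 73.5 in db/+ (−0.55, SE 0.23, adjusted p = 0.60). Its brightest probe set, 1439380_x_at, had 539.9, 608.9 and 360.4 in db/db and 492.6 and 707 in db/+, which overlapped (−0.26, SE 0.25). Of the Ndn neighbours, Ube3a was tested by 2 probe sets, with log2 changes of −0.22 (SE 0.26) and −0.16 (SE 0.20), while Magel2, Mkrn3, Peg12, Snrpn and Atp10a had no probe set above the filter. Near Cdkn1c, the log2 changes of Cd81, Nap1l4, Osbpl5 and Tssc4 were 0.080, −0.075, 0.17 and −0.0010, and Ascl2, Kcnq1, Phlda2, Slc22a18 and Tspan32 were not tested. Copg2, beside Mest, had 0.045 (SE 0.15), and Th, beside Igf2, had 0.36 (SE 0.17, adjusted p = 0.65). Ins2 of the same domain was not tested, with 44.2, 62.7 and 49.9 in db/db and 13.4 and 34.4 in db/+. Its groups did not overlap, and with no filter its log2 change was 0.82 (limma adjusted p = 0.60). Among other untested probe sets of neighbours, db/db lay wholly above at 1425206_a_at of Ube3a. It lay wholly below at 1418160_at of Mkrn3 and 1422396_s_at of Ascl2. Usp29 and Zim1 beside Peg3, and Ddc beside Grb10, were not tested either.

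A list of 63 other imprinted genes had 45 on the array, 23 of them tested by their brightest probe set. None passed, 2 were lower and 0 higher at an unadjusted p under 0.05, against 4.27% lower and 4.36% higher over all 8263 genes tested. The median log2 change was 0.021 in the list and 0.021 over all genes. Igf2r, the maternally expressed receptor that clears the IGF2 protein, had 440.8, 457.4 and 524.3 in db/db and 631.3 and 704.3 in db/+. The arrays of 1424111_at did not overlap (−0.48, SE 0.16, adjusted p = 0.45), while those of its second probe set 1424112_at did (−0.12, SE 0.19). The paraoxonase gene Pon2 had 47.3, 63 and 61.6 in db/db and 92.3 and 79.1 in db/+ (−0.48, SE 0.17, adjusted p = 0.51). Blcap and Slc22a2, the next by p, had −0.37 (SE 0.18) and 0.29 (SE 0.17), both without overlap of the groups.

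**Figure D4:**
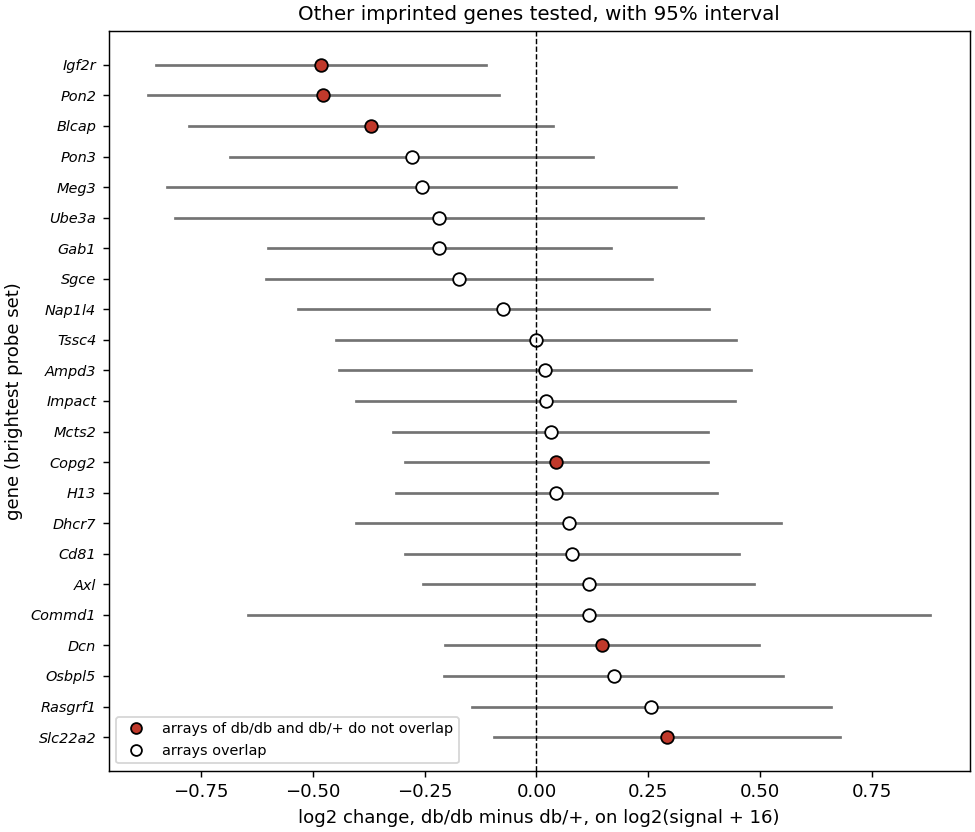
Log2 change, db/db minus db/+ on log2(signal + 16), of the 23 other imprinted genes tested, with its 95% interval from limma; filled points mark genes whose arrays do not overlap between genotypes. Igf2r and Pon2 are lowest, both at −0.48, and the list's median is 0.021.

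Around Igf2 and Grb10, a list of 20 IGF ligands, receptors, binding proteins and partners had 19 genes on the array and 12 tested. None passed, 2 were lower and 0 higher at an unadjusted p under 0.05, against the same 4.27% and 4.36% over all genes, and the median log2 change was −0.043. Besides Igf2r, the insulin receptor substrate gene Irs2 had 48.3, 34.6 and 38.7 in db/db and 68.8 and 57.4 in db/+ (−0.49, SE 0.17, adjusted p = 0.49). The groups did not overlap for Irs2. The next by p were the protease gene Htra1 (0.33, SE 0.21, and −0.059 at its second probe set) and the binding protein gene Igfbp2 (−0.31, SE 0.27), both with overlapping groups.

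Markers of other cells differed between the same arrays in which Ndn, Plagl1 and the H19 and Mir675 probe set were lower. The summed signal of 16 measured macrophage markers was 2969 to 3548 in db/db and 5047 to 6322 in db/+, with 13 of the 16 above the filter's level. For 15 endothelial markers, all above that level, the sum was 2429 to 2870 in db/db and 3245 to 3540 in db/+. Of these 15, 12 had a negative and 3 a positive log2 change, and none passed. Arrays of db/db lay wholly below those of db/+ for 8 of the 15, against 989 of all 8263 genes tested, and the other endothelial markers overlapped. For 17 hepatocyte markers, 13 above the level, the sum was 2116 to 2861 in db/db and 3220 to 3536 in db/+. Of those 13, 9 had a negative log2 change, with Alb (−2.24, adjusted p = 0.0090) and Bhmt (−1.93, adjusted p = 0.024) passing, and 4 a positive one, among them Cyp2e1 (0.86), Apoa1 (0.81) and Itih3 (0.50), which did not overlap between genotypes and did not pass. The sums of these 3 lists did not overlap between genotypes. Alb alone read 110.2, 82.2 and 72.3 in db/db and 420.4 and 525.9 in db/+. The hepatocyte sum was not read without Alb, so its separation does not show a shift of the whole list. Fga, Fgb, Fgg and Apob of the hepatocyte list and Itgam, Aif1 and Msr1 of the macrophage list were below the level. The part of these cells in the member values was not tested.

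For 16 preadipocyte and mesenchymal progenitor markers the sum was 6898 to 7647 in db/db and 6813 to 7448 in db/+. For 19 white adipocyte markers it was 25722 to 37990 in db/db and 31977 to 34067 in db/+, and for 13 brown adipocyte markers 6609 to 12950 in db/db and 9010 to 10356 in db/+. The 16 fibroblast markers summed to 24241 to 29192 in db/db and 23010 to 26290 in db/+, and the 17 smooth muscle markers to 41126 to 50279 in db/db and 37865 to 41700 in db/+. The 14 cardiac markers summed to 993 to 4735 in db/db and 1505 to 2018 in db/+, and the 11 skeletal muscle markers to 707 to 1076 in db/db and 686 to 1430 in db/+. All 7 of these sums overlapped between genotypes, but a sum can hide shifts of its markers. Of the 17 smooth muscle markers 15 had a positive and 2 a negative log2 change (median 0.19), and none passed. Of the 19 white adipocyte markers 14 had a negative and 5 a positive log2 change, and Lep passed (−2.96, limma adjusted p = 0.0073). Over all 8263 genes tested, 3810 had a negative and 4453 a positive log2 change. For 10 nerve and Schwann cell markers the sum was 2037 to 2082 in db/db and 1859 to 1927 in db/+, without overlap. Without Pmp22, the brightest of them, left out after the values were seen, the sum was 670 to 694 in db/db and 666 to 684 in db/+, which overlapped. Of the 8 nerve and Schwann cell markers tested, 5 had a positive and 3 a negative log2 change, with a median of 0.11. The 3 negative ones were S100b, Mbp and Sox10 (−0.29, −0.28 and −0.18), and none of the 8 passed. No marker of these lists had a signal of 0 on any array.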

How the data were processed

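Mouse aorta RNA was measured on Affymetrix arrays, 3 of db/db and 2 of db/+ pools, with biotin-labelled cRNA from 10 µg RNA, as the labels' protocols state. The deposited values were linear signal intensities made by the authors with MAS5, which the submitters' processing notes name; no version or genome build is given in the sources used here. Of 22690 probe sets 64 controls were left out, and 20380 of the other 22626 had 1 gene symbol in the platform annotation, 691 several and 1555 none. Intensities were used without further normalization, transformed to log2(signal + 16), and kept above the 40th percentile of the mean log2 value. limma 3.58.1 in R 4.3.3 (lmFit, eBayes, two-sided, no covariates; 3 residual and 5.63 prior degrees of freedom) tested 13575 probe sets with Benjamini-Hochberg adjustment. The fit was checked on simulated data. The number of arrays limits the precision.

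Members were all probe sets with a member's symbol alone. Gene lists were read by the brightest probe set of a gene. In the lists of other imprinted, IGF, cell cycle and cAMP genes, those past the threshold, or else the 4 with the smallest p, were named. Every measured neighbour of the members and Lepr were named as well. Markers named from the cell type lists did not follow this rule. Members and lists were chosen with earlier results of these data known. Alternatives were pseudocounts of 1 and 64, other filters, quantile and median scaling, other variance models, array weights, a block for the replicate number, leaving out each array, and a threshold of 0.1. Promoter and microRNA sequences are from RefSeq (GRCm38.p6), where 20364 of 20393 named probe sets with an Entrez identifier matched.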

Additional observations from a re-analysis of the deposited data

How the results depend on the processing

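In every refit listed below, 0 member probe sets, 0 other imprinted genes and 0 IGF genes passed, with a lowest adjusted p among members of 0.34 (Plagl1, array weights). Log2 changes of the 5 bright probe sets of Ndn stayed between −0.61 and −0.12, and that of Plagl1 between −1.02 and −0.35. Among all probe sets 11 were lower and 0 higher; the counts lower were 2 with a pseudocount of 1, 34 with 64, 1 with no filter, 20 with a filter at the 60th percentile, 18 with median centring, 34 with a trended robust variance, 41 with array weights, 18 with the replicate block and 41 at a threshold of 0.1, and 0 to 24 with an array left out (0 without db/+ replicate 2, 1 without db/+ replicate 3, 24 without db/db replicate 1). The counts higher were 3 with a pseudocount of 64, 2 at the 60th percentile, 1 with median centring, 5 with the trended variance, 7 with array weights, 2 with the block and 7 at 0.1, and 0 to 4 with an array left out. The median over the 17 member probe sets, −0.065, was 0.014 over 25 with no filter and −0.20 over 12 at the 60th percentile. Those filters change which probe sets are counted and not their log2 changes. The median was −0.15 with the block, and −0.20 to −0.018 with an array left out, over 15 to 17 probe sets.

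Signs changed for 7 member probe sets, with changes of up to 0.17 in size, and the cause was not tested: Igf2 (0.0014 with a pseudocount of 64, 0.019 with array weights), Peg3 at 1417355_at (−0.013 with median centring, −0.041 with array weights) and at 1433924_at (−0.024, −0.012, and −0.0033 with the block), and Ndn at 1438939_x_at (−0.00039 with quantile normalization, −0.00018 with array weights, −0.15 with the block). With an array left out the ranges were −0.089 to 0.14 for Igf2, −0.28 to 0.035 for Mest, −0.16 to 0.19 and −0.076 to 0.10 for the 2 probe sets of Peg3, −0.036 to 0.28 for Dlk1, −0.092 to 0.44 for Cdkn1c and −0.023 to 0.15 for Ndn at 1438939_x_at. The ranges of Dlk1 and of Ndn at 1438939_x_at lack the fit without db/db replicate 1, where both fell under the filter. With the block their values were 0.029 and −0.15. Read by probe sets without a shared suffix, Gnas was −0.065 and Ndn −0.17, and with probe sets averaged they were 0.020 and −0.24. Replicate numbers 2 and 3 occur in both genotypes, and deviations of same-numbered arrays correlated with r = 0.11 and −0.0048, so the block was kept as an alternative only. Replicate number 1 occurs only in db/db, so a log2 change with the block equals that without db/db replicate 1. For log2 changes, the block and that left-out array are therefore not separate checks. Only 2 db/+ pools were available, and leaving out a db/+ array leaves 1 that is assumed to vary like the db/db arrays.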

Other observations

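In a list of 23 cyclins, cyclin-dependent kinases and their inhibitors, read around Cdkn1c, 12 genes were tested, 0 passed, and 1 was lower and 1 higher at an unadjusted p under 0.05, against 4.27% and 4.36% over all genes. The median log2 change was −0.096. Ccnd1, which encodes cyclin D1, had 213.3, 214.8 and 212.9 in db/db and 329.8 and 308.6 in db/+ (−0.54, SE 0.15, limma adjusted p = 0.32). Its other 2 probe sets had log2 changes of −0.67 and −0.59, without overlap of the groups in any of them. Ccnd2, which encodes cyclin D2, had 850.2, 973.6 and 959.9 in db/db and 678.4 and 665.3 in db/+ (0.45, SE 0.16, limma adjusted p = 0.46). The other 4 tested probe sets of Ccnd2 had log2 changes from 0.21 to 0.48, also without overlap. Pcna had −0.48 (SE 0.23) and Cdk4 −0.21 (SE 0.16), and other probe sets of Cdk4 had 0.0025 and 0.030.

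Around Gnas, a list of 35 partners of the stimulatory G protein and of cAMP signalling had 23 genes tested. None passed, 0 were lower and 1 higher at an unadjusted p under 0.05, against 4.27% and 4.36% over all genes, and the median log2 change was 0.026. Prkaca, a catalytic subunit of protein kinase A, had 564.4, 560.1 and 512.4 in db/db and 440.1 and 387.6 in db/+ (0.39, SE 0.16, limma adjusted p = 0.57). Prkacb and the adenylyl cyclase gene Adcy7 had 0.30 and 0.28, and Adcy4 had −0.70 (SE 0.32), all 3 without overlap of the groups. Second probe sets gave 0.10 for Prkacb and 0.28 and 0.085 for Adcy7.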
